A study of Mus musculus with 20 samples.

Results

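Tnfr2-/- and wild-type (WT) mouse colonoid cultures were compared at 5 and 7 days post-passage (DPP), the late days of a time course, to find which genes differed between genotypes and which of these differences held against each WT culture taken alone. The comparison used 8 of the 20 libraries of the series, chosen by their labels, with 2 Tnfr2-/- and 2 WT libraries at each day. Colonoids are epithelial structures that grow from colonic crypts in a gel. Crypts from WT or Tnfr2-/- mice were embedded in Matrigel under IntestiCult medium, passaged repeatedly, filtered through a nylon mesh and reseeded, and polyadenylated RNA was sequenced with a stranded kit. The knockouts carried a null allele of Tnfrsf1b (B6.129S2-Tnfrsf1b tm1Mwm/J) in every cell of the body and the WT mice were C57BL/6, so the comparison covered all cells in the gel and any DNA that travels with the targeted allele. No treatment was given to either genotype. Each genotype was represented by 2 cultures, M1 and M2, read here as 2 mice. Each culture gave 1 library per day, so the 4 libraries of a genotype are not 4 independent animals and p-values over libraries can be too small. The labels do not say whether the numbers M1 and M2 link a knockout to a WT culture, and the main fits treat them as unpaired.

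Tnfrsf1b encodes TNFR2, one of the receptor pair for the cytokine TNF. It lacks the death domain of TNFR1 and recruits TRAF adaptors, which activate NF-kB and kinase pathways. In the gut the receptor is induced in inflamed epithelium, and NF-kB and AP-1, the dimer of Fos and Jun proteins, are among the transcription factors through which inflammatory signals switch on cytokine, chemokine and metalloproteinase genes. Crypt epithelium renews itself by division of stem cells and differentiates into absorptive colonocytes, goblet cells, deep crypt secretory cells, enteroendocrine cells and tuft cells.

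Values are normalized expression, that is, TPM (an abundance per transcript length) corrected by a size factor for the library and summed over a gene's transcripts. Where 4 values are listed for a genotype they stand in the order 5 DPP M1, 5 DPP M2, 7 DPP M1 and 7 DPP M2. Fold changes are Tnfr2-/- minus WT on the scale log2(value + 1), which understates the change of genes with low values. A gene was called when limma gave an adjusted p under 0.05 over the 13565 genes tested. Each library showed 13132 to 13469 genes at 1 or more, and libraries of a group correlated at a Pearson r of 0.919 to 0.955 across genes. The read depth of single libraries is unknown. The targeted gene itself was lower, not absent. Tnfrsf1b was at 8.08, 7.59, 7.84 and 11.4 in Tnfr2-/- and at 13.9, 13.6, 21.9 and 14.2 in WT libraries. All 4 knockout libraries lay below all 4 WT libraries, and the gene was not called (log2 fold change -0.79, SE 0.19, adjusted p = 0.0771). Summed values do not show which exons the remaining reads came from, so this is only a partial check of the labels. The 10 epithelial markers summed to 14931 to 20909 in Tnfr2-/- and 16512 to 21486 in WT libraries. The 20 fibroblast markers were also abundant, at 5508 to 13041 in Tnfr2-/- and 1987 to 7420 in WT libraries, so mesenchymal transcripts were part of every library. In bulk RNA, a change in the number of cells of a type and a change in RNA per cell cannot be told apart.

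At the late days 299 of 13565 genes were called between genotypes (2.2%), 219 higher (1.61%) and 80 lower (0.59%) in Tnfr2-/- cultures. Against WT M1 alone 1365 genes were called (10.1%), 700 higher (5.16%) and 665 lower (4.9%). Against WT M2 alone 127 genes were called (0.936%), 85 higher (0.627%) and 42 lower (0.31%). Of the 299 genes, 288 were called in the same direction against WT M1 and 87 against WT M2. All of the latter 87 were also among the 288, so 87 genes, 29.1% of the calls and 0.641% of all genes tested, held against both WT cultures, 70 higher and 17 lower. The remaining 201 calls that held against WT M1 did not pass against WT M2, and 11 passed against neither. Where more genes pass, as against WT M1, an adjusted p under 0.05 is a looser cutoff. Failing against WT M2 therefore need not mean a smaller difference. Nfkbiz, for example, had a fold change of 0.66 against WT M1 (SE 0.16, limma adjusted p = 0.0392) and 0.71 against WT M2 (SE 0.16, adjusted p = 0.0933). None of the 299 had opposite signs against WT M1 and WT M2. The median fold change of the 219 genes called higher was 1.76 against WT M1 and 1.45 against WT M2, and that of the 80 called lower was -1.36 and -1.12. The genes were chosen on the average of both, and these contrasts share the 4 Tnfr2-/- libraries. Over the 299 genes, 281 had no overlap between the 4 Tnfr2-/- and the 4 WT libraries, as did 1556 of all genes tested (11.5%). The split between directions depended on the scaling, with 179 higher and 128 lower when every library was brought to the same total.

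The WT libraries were more spread out than the knockout libraries. The first principal component, with 33.2% of the variance, placed the Tnfr2-/- libraries between -40.8 and -19.2 and the WT libraries at 71.7, 15, 30.5 and 8.92. WT M1 at 5 DPP stood farthest out. It was the lowest WT library for 157 of the 219 genes called higher (71.7%, against 26.3% of all genes tested) and the highest WT library for 50 of the 80 called lower (62.5%, against 29.4%). Without that library 120 genes were called, and without WT M2 at 5 DPP 599. The count was 16 to 61 without any single Tnfr2-/- library, 75 without WT M2 at 7 DPP and 239 without WT M1 at 7 DPP. The 87 genes that held against both WT cultures became 19 and 1 without Tnfr2-/- M1 and M2 at 5 DPP, 10 and 7 without those at 7 DPP, 51 and 2 without WT M1 and M2 at 5 DPP, and 130 and 1 without those at 7 DPP. The 127 calls against WT M2 alone became 1 to 260 in these fits, with the fewest without WT M2 at 7 DPP. With the culture as a correlated block 201 genes were called. On the means of 5 and 7 DPP per culture, 2 cultures against 2, only Rpl34 was called, with 1890 genes at an unadjusted p under 0.05.

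**Figure D1:**
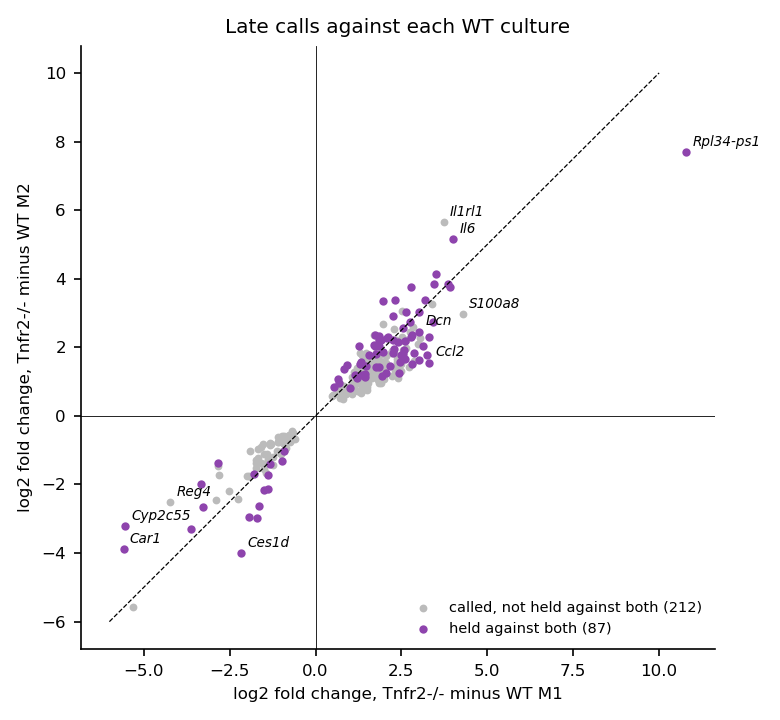
Each point is 1 of the 299 genes called at the late days, with its log2 fold change against WT M1 on the horizontal and against WT M2 on the vertical axis; purple points are the 87 genes that held against both. Points near the dashed line differed by the same amount from each WT culture, and points such as Car1 and Ccl2 lie farther from WT M1 than from WT M2. The genes were chosen on the average of both axes, and both axes share the Tnfr2-/- libraries.

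Among genes with separate groups, leaving out pseudogenes and genes with provisional symbols (Gm or Rik), the largest rises included genes for cytokines, signalling peptides and their receptors. Il1rl1, the receptor for interleukin-33, was at 1168, 1051, 1353 and 1250 in Tnfr2-/- libraries and at 10.2, 11.8, 731 and 44.3 in WT. The WT library of M1 at 7 DPP stood near the knockout level while the other WT libraries did not exceed 44.3, and the call (log2 fold change 4.69, SE 0.95, adjusted p = 0.0474) was lost in 7 of 8 fits that left out 1 library and passed against neither WT culture alone. Il6, an inflammatory cytokine, was at 43.1, 44.5, 30.4 and 24.4 in Tnfr2-/- libraries and was listed at 0 in 3 WT libraries and at 3.95 in WT M1 at 7 DPP (log2 fold change 4.58, SE 0.54, adjusted p = 0.00908). Tnfrsf9, the TRAF-binding costimulatory receptor 4-1BB, was at 90.8, 111, 134 and 190.4 against 1.77, 3.16, 44.5 and 11.5 (log2 fold change 3.83, SE 0.52, adjusted p = 0.0149). Il6 and Tnfrsf9 held against both WT cultures. Tnfrsf9 lies within 10 Mb of Tnfrsf1b, where the genotype and DNA linked to the allele cannot be told apart.

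Brinp3, a secreted protein best known from neurons, had a steady rise. It was at 17.2, 20.5, 34.1 and 24.9 in Tnfr2-/- and at 0, 0.595, 1.64 and 1.07 in WT libraries (log2 fold change 3.83, SE 0.24, adjusted p = 0.00118), and its call was kept in all 8 fits that left out 1 library. Penk, the precursor of the enkephalin opioid peptides, was at 192, 115, 146 and 118 against 4.9, 7.78, 27.2 and 9.67 (log2 fold change 3.65, SE 0.40, adjusted p = 0.00847). Arhgdib was at 10.4, 12.5, 34.6 and 19 against 1.02, 0.532, 0.947 and 0.962 (log2 fold change 3.29, SE 0.29, adjusted p = 0.00295). All 3 genes held against both WT cultures, and the 2 genotypes did not overlap for any of them.

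Other large rises followed. Ackr4, a scavenging chemokine receptor, was at 67.1, 98.6, 109.5 and 148 against 1.92, 8, 31.9 and 11.7 (log2 fold change 3.33, SE 0.47, adjusted p = 0.0156). Il13ra2, a decoy receptor for interleukin-13, was at 16.8, 11.1, 32.2 and 18.8 against 0, 1.52, 2.29 and 2.4 (log2 fold change 3.07, SE 0.33, adjusted p = 0.00847). Nppc, which encodes C-type natriuretic peptide, was at 12.8, 21, 6.63 and 13.6 in Tnfr2-/- libraries and stood at 0 in every WT library except 1, where it was 2.83. Crispld2, a secreted cysteine-rich protein, was at 5.61, 9.78, 12 and 15.4 against 0, 0.255, 2.17 and 0.461 (log2 fold change 2.84, SE 0.32, adjusted p = 0.00908). Of these, Il13ra2, Nppc and Crispld2 held against both WT cultures and Ackr4 did not (adjusted p = 0.0619 against WT M2). Gbp2b, an interferon-inducible GTPase, was at 8.79, 6.92, 5.57 and 2.86 in Tnfr2-/- and listed at 0 in all 4 WT libraries. Mmd was at 27.3, 27.9, 39.9 and 41.3 against 1.55, 3.89, 12.5 and 5.92 (log2 fold change 2.56, SE 0.31, adjusted p = 0.00953) and held against both.

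**Figure D2:**
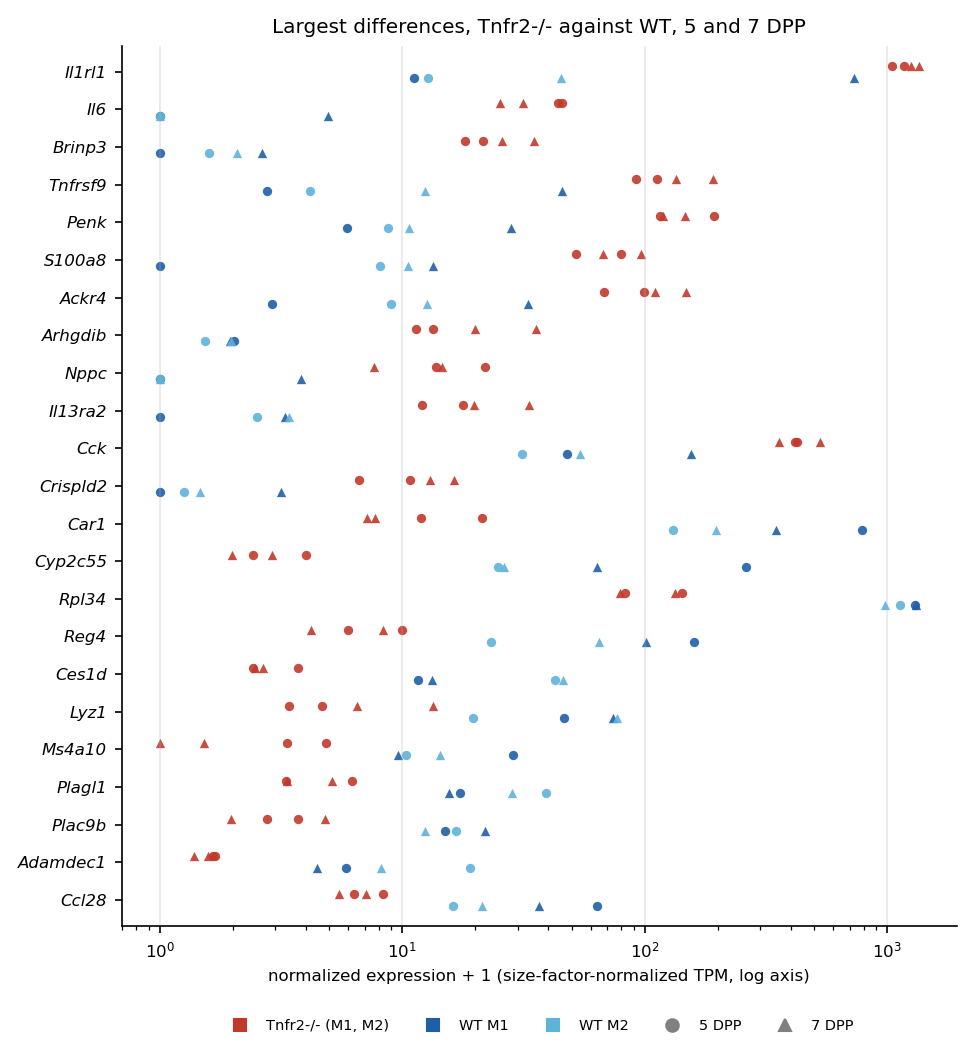
Normalized expression + 1 on a log axis for the 12 genes with the largest rise (top) and 11 of the 12 with the largest fall among called genes whose groups do not overlap, pseudogenes and genes with provisional symbols (Gm or Rik) left out; red points are Tnfr2-/-, dark and light blue points WT M1 and WT M2, circles 5 DPP and triangles 7 DPP. For Il1rl1 the WT M1 triangle, at 731, lies close to the red points, whereas for Brinp3 every WT library is under 2 and every Tnfr2-/- library above 17.

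The largest falls included genes of differentiated colonic epithelium. Car1, a carbonic anhydrase of surface colonocytes, was at 20.4, 11, 6.14 and 6.74 in Tnfr2-/- and at 789, 130.1, 348 and 196 in WT libraries (log2 fold change -4.74, SE 0.52, adjusted p = 0.00847). Cyp2c55, a cytochrome P450 of the colon, was at 1.43, 3.01, 1.92 and 0.982 against 260.1, 23.7, 62.4 and 25.3 (log2 fold change -4.39, SE 0.67, adjusted p = 0.0218). Both held against both WT cultures, and both were highest in WT M1 at 5 DPP, so that the fold changes of Car1 were -5.59 against WT M1 and -3.88 against WT M2.

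Of 8 deep crypt secretory cell genes tested, 2 fell (0.59% of all genes), and 2 had a fold change above 0. Lyz1, the lysozyme of Paneth cells, was at 2.41, 3.69, 5.53 and 12.4 against 45.6, 18.6, 73.3 and 75.8 (log2 fold change -2.97, SE 0.32, adjusted p = 0.00847), and it held against both WT cultures. Reg4, a lectin of deep crypt secretory cells, was at 4.99, 8.96, 7.32 and 3.22 against 159, 22.2, 101 and 63.6 (log2 fold change -3.38, SE 0.57, adjusted p = 0.0273). Its adjusted p against WT M2 was 0.0705, and its call was lost in 7 of 8 fits that left out 1 library. Ccl28, an epithelial chemokine for IgA-producing plasma cells, was at 5.36, 7.34, 4.47 and 6.1 against 62.4, 15.2, 35.5 and 20.4 (log2 fold change -2.15, SE 0.40, adjusted p = 0.0364), with a larger difference from WT M1 (-2.84 against WT M1 and -1.47 against WT M2).

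Another group of falls was larger against WT M2 than against WT M1. Ces1d, a carboxylesterase that hydrolyses lipid esters, was at 1.42, 2.72, 1.67 and 1.47 against 10.7, 41.6, 12.2 and 45.3, with fold changes of -2.16 against WT M1 and -4.0 against WT M2. Plagl1, an imprinted zinc finger factor that restrains growth, was at 5.24, 2.31, 4.15 and 2.36 against 16.4, 38.1, 14.7 and 27.3 (-1.93 against WT M1 and -2.94 against WT M2). Adamdec1, a secreted metalloprotease-like protein of intestinal macrophages and stroma, was at 0.686, 0.656, 0.383 and 0.59 against 4.84, 18.1, 3.45 and 7.16 (-1.70 against WT M1 and -2.99 against WT M2). Scube1 was at 0.997, 2.87, 3.06 and 2.85 against 12.5, 16.8, 7.05 and 22.4 (-1.65 against WT M1 and -2.62 against WT M2). All 4 genes held against both WT cultures, as did Nup210, a nuclear pore protein, at 3.26, 2.45, 1.49 and 2.29 against 10.8, 10.9, 10.2 and 8.51 (log2 fold change -1.74, SE 0.21, adjusted p = 0.00908). Ms4a10 and Plac9b were called (-2.67 and -2.37) and did not hold against WT M2. Rpl34, a ribosomal protein, was at 142, 82.1, 77.9 and 133 against 1300, 1125, 1315 and 978 (log2 fold change -3.47, SE 0.22, adjusted p = 0.00118), whereas its processed pseudogene Rpl34-ps1 was at 1693, 2171, 1557 and 1731 in Tnfr2-/- and listed at 0 in 3 of 4 WT libraries and at 73.4 in WT M2 at 7 DPP. The pair share nearly all of their sequence and can exchange reads, so neither value is certain.

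Of 12 IL-6 family cytokines, receptors and feedback genes tested 3 rose, Il6, Lif and Socs3, and 9 had a fold change above 0, as against 1.61% and 44.6% of all genes. Lif, a cytokine of the same receptor family, was at 141, 135, 72.6 and 79.8 against 36.9, 39.2, 41.1 and 39.1 (log2 fold change 1.37, SE 0.19, adjusted p = 0.0152). Socs3, the feedback inhibitor that STAT3 induces, was at 43, 72.3, 55.2 and 64.9 against 13.4, 22.9, 25.4 and 25 (log2 fold change 1.41, SE 0.22, adjusted p = 0.0241). The lowest knockout library lay above the highest WT library for both, but neither passed against WT M2, where the fold changes were 1.37 (adjusted p = 0.0549) and 1.24 (0.0869). Il11 reached 454, 433, 239 and 343 in Tnfr2-/- libraries, and in WT it was at 6.24, 6.96, 438 and 37.1. Here WT M1 at 7 DPP was as high as the knockouts, and Il11 was not called (log2 fold change 3.51, SE 1.03, adjusted p = 0.118). Csf3, the granulocyte growth factor, was at 11.8, 11.3, 14.5 and 10.9 against 0.526, 2.09, 0.491 and 2.27 (log2 fold change 2.58, SE 0.33, adjusted p = 0.0117) and held against both WT cultures.

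Neutrophil and monocyte attractants were among the calls as well. Of 15 chemokine genes tested, 5 rose, Ccl7, Cxcl2, Cxcl1, Ccl2 and Cxcl3, and 1 fell, Ccl28, beside 1.61% of all genes called higher and 0.59% called lower. Cxcl1, a ligand of the neutrophil receptor CXCR2, was at 103, 129, 98.8 and 106 against 12.9, 27.7, 30.8 and 61.9 (log2 fold change 1.88, SE 0.36, adjusted p = 0.0398). Cxcl2, a close relative, was at 58.7, 42.5, 47 and 36.1 against 3.23, 7.38, 16.1 and 11.5 (log2 fold change 2.31, SE 0.37, adjusted p = 0.0241). Cxcl3 was low throughout, at 3.77, 3, 6.84 and 3.78 against 0.782, 0, 1.46 and 1.12 (log2 fold change 1.57, SE 0.32, adjusted p = 0.0466). None of the 3 passed against WT M2, where the fold changes were 1.37, 2.18 and 1.83 with an adjusted p of 0.111, 0.0871 and 0.0748. The monocyte attractants Ccl2 and Ccl7 passed against both WT cultures, although their fold changes against WT M2, 1.56 and 1.78, were smaller than those of Cxcl2 and Cxcl3. Ccl2 was at 334, 289.9, 559.5 and 295 against 36.4, 102, 34 and 141 (log2 fold change 2.43, SE 0.47, adjusted p = 0.0421), and Ccl7 at 104, 74.2, 168 and 103 against 15.9, 28.7, 20.8 and 32.8 (log2 fold change 2.14, SE 0.26, adjusted p = 0.00914). For Ccl2 the fold change against WT M1 was 3.30, and its call was lost in 7 of 8 fits that left out 1 library.

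The promoters of these genes are shown because 4 of the called cytokine and chemokine genes carry letters of the kappaB motif close to the start. The stretches are the 120 bases upstream of the RefSeq start on the plus strand of GRCm38.p6, printed 5′ to 3′, with matches to the kappaB letters used here (GGG, any 2 bases, then TTTCC) on either strand in capitals. They lie at chr5:30012994-30013113 for Il6, chr5:90891125-90891244 for Cxcl1, chr5:90903779-90903898 for Cxcl2 and chr5:90785981-90786100 for Cxcl3.
Il6: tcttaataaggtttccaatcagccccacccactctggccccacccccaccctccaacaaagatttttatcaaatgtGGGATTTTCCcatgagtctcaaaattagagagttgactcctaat
Cxcl1: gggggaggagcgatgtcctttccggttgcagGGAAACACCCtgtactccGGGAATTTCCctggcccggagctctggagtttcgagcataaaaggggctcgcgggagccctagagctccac
Cxcl2: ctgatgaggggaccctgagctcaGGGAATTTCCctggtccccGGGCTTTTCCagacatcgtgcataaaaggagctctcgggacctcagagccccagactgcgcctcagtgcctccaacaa
Cxcl3: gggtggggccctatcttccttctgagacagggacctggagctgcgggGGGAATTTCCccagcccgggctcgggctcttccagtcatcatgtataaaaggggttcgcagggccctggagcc
Cxcl1 and Cxcl2 each held 2 matches and Il6 and Cxcl3 held 1. Cxcl1, Cxcl2 and Cxcl3 lie together on chromosome 5, between 90786103 and 90905938, so they are not independent cases. A window of 250 bases before to 50 after a start was at hand for 155 of the 219 genes called higher, and 7 of these (4.52%) held the motif, namely Cxcl1, Cxcl2, Cxcl3, Il6, Krt23, Tnfrsf9 and Vim. It was held by 5 of the 61 genes called lower that had a window (8.2%), by 206 of 10034 tested genes with one (2.05%) and by 535 of all 32851 windows (1.63%). The motif was chosen after the called genes were seen, and a match of letters is a description, not a binding site.

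Prostaglandin and growth factor genes were among the calls too. Of 12 prostaglandin genes tested 2 were called, both higher (1.61% of all genes). Ptgs2, the inducible cyclooxygenase, was at 541, 494, 412 and 560.2 against 44.2, 108, 214 and 108 (log2 fold change 2.27, SE 0.37, adjusted p = 0.0257). Ptges, the prostaglandin E synthase that acts after it, was at 82.8, 113, 121 and 151 against 15.5, 21.1, 66.2 and 44.6 (log2 fold change 1.83, SE 0.26, adjusted p = 0.0158). The highest WT library for both was M1 at 7 DPP, and neither passed against WT M2. The fold changes were 2.34 against WT M1 and 2.20 against WT M2 for Ptgs2 and 1.79 against WT M1 and 1.86 against WT M2 for Ptges, with an adjusted p of 0.0892 and 0.0549 against WT M2. Of 12 EGF family genes 1 rose, beside 1.61% of all genes. This was Ereg, an ErbB ligand, at 436, 389.6, 270 and 234 against 32.2, 46.2, 129 and 63.9 (log2 fold change 2.42, SE 0.40, adjusted p = 0.0265). Of 9 IL-1 family genes 2 rose, beside the same share of all genes. These were Il1rl1 and Il1rap, the receptors' shared accessory chain, the latter with overlapping groups at 23, 31.2, 48.9 and 44.5 against 9.83, 15.8, 14.3 and 23.5 (log2 fold change 1.17, SE 0.22, adjusted p = 0.0364). Fgf7, a stromal growth factor for epithelium, was at 53.2, 39.5, 65.3 and 78.2 against 4.9, 14.8, 15.1 and 14.1 (log2 fold change 2.25, SE 0.28, adjusted p = 0.0115) and held against both. Hgf was at 55.5, 61.8, 72.2 and 73.8 against 13.2, 23.4, 33.7 and 36.7 (log2 fold change 1.35, SE 0.21, adjusted p = 0.0218).

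Of 16 TNF superfamily ligands and receptors tested, 2 rose and 1 fell, beside the same 1.61% and 0.59% of all genes. Tnf itself was at 34.2, 28.3, 37 and 35.5 in Tnfr2-/- and at 7.1, 13, 22.3 and 19.8 in WT libraries (log2 fold change 1.18, SE 0.24, adjusted p = 0.0474). The groups did not overlap, but the call was lost in 7 of 8 fits that left out 1 library. Tnfrsf19, a receptor also called TROY that marks stem cells, was lower, at 0.819, 1.7, 0.484 and 0.235 against 4.59, 5.94, 3.27 and 7.63 (log2 fold change -1.83, SE 0.34, adjusted p = 0.035), and held against both WT cultures. Tnfrsf1a, which encodes TNFR1, overlapped between genotypes, at 139.9, 194, 105 and 123 against 67.6, 170.1, 158 and 143 (log2 fold change 0.11, SE 0.32, adjusted p = 0.883). Of 24 NF-kB subunits, adaptors and feedback genes, 2 were called, both higher, and 21 had a fold change above 0 (1.61% and 44.6% of all genes), with a median of 0.19. Tnip3, an inhibitor of NF-kB signalling, was at 244, 239, 185 and 179.9 against 119, 153, 136 and 112 (log2 fold change 0.70, SE 0.13, adjusted p = 0.035). Nfkbiz, a nuclear cofactor of NF-kB at cytokine genes, was at 24.2, 21.9, 25.2 and 25.5 against 15.5, 14.5, 14.3 and 14.2 (log2 fold change 0.69, SE 0.13, adjusted p = 0.0396). Neither held against WT M2.

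**Figure D3:**
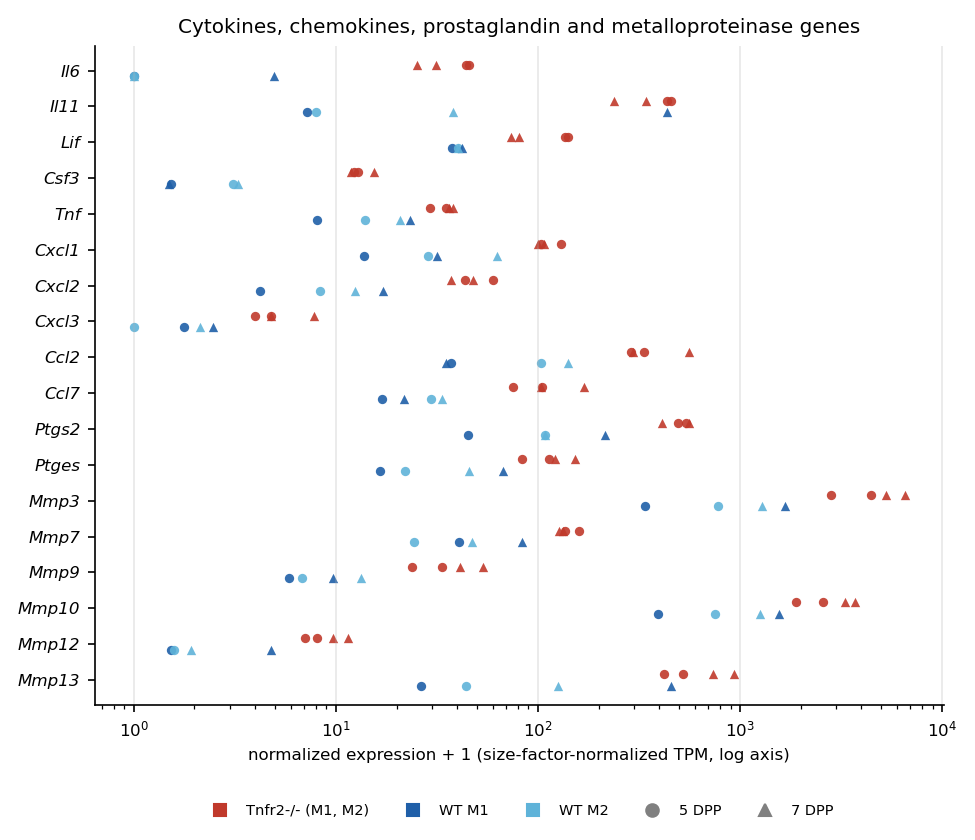
Normalized expression + 1 on a log axis for cytokine, chemokine, prostaglandin and metalloproteinase genes in each library; colors and shapes are as in the plot of the largest differences. Red points lie to the right of all blue points for every gene shown except Il11 and Mmp13, whose WT M1 values at 7 DPP, 438 and 454, fall among the Tnfr2-/- values.

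Matrix-degrading enzymes had fold changes above 0 throughout. Of 19 metalloproteinase, TIMP and plasminogen activator genes tested, 6 rose and none fell, and all 19 had a fold change above 0, beside 1.61%, 0.59% and 44.6% of all genes. The median was 1.12, with 1.31 against WT M1 and 0.74 against WT M2, where the medians of all genes were -0.05, -0.06 and -0.03. Mmp3, stromelysin-1, was at 2817, 4454, 5308 and 6571 in Tnfr2-/- and at 340.2, 776, 1670 and 1281 in WT libraries (log2 fold change 2.40, SE 0.30, adjusted p = 0.01). Mmp9, a gelatinase, was at 22.9, 32.6, 40.5 and 52.9 against 4.86, 5.8, 8.75 and 12.4 (log2 fold change 2.11, SE 0.19, adjusted p = 0.00295), and its call was kept in all 8 fits that left out 1 library. Mmp7, the epithelial matrilysin, was at 159, 136, 133 and 126 against 39.7, 23.4, 82.3 and 46.5 (log2 fold change 1.64, SE 0.30, adjusted p = 0.0344). These 3 held against both WT cultures. Mmp10 was at 1899, 2587, 3335 and 3730 against 393, 750.1, 1562 and 1254 (log2 fold change 1.68, SE 0.24, adjusted p = 0.0162), and Mmp13, a collagenase, was at 419.5, 520.5, 739 and 939 against 25.3, 43.1, 454 and 124 (log2 fold change 2.79, SE 0.50, adjusted p = 0.0335). For Mmp13 the WT library of M1 at 7 DPP lay above the lowest knockout library, and the other 3 WT libraries lay well below. Adamts1, a secreted protease of proteoglycans, was at 24, 30.1, 29.8 and 25.1 against 7.13, 11.4, 11.7 and 15.4 (log2 fold change 1.22, SE 0.21, adjusted p = 0.028). Outside the list, Mmp12, Mmp1a and Mmp1b were also called, at 2.04, 1.56 and 1.68, so 8 of 17 tested genes named Mmp were called, all higher.

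The upstream stretches of 3 of these genes are shown because all 7 called Mmp genes that had a window held the AP-1 letters TGANTCA. The 120 bases before the RefSeq start (GRCm38.p6, plus strand) are at chr9:7445702-7445821 for Mmp3, chr9:7502222-7502341 for Mmp10 and chr9:7272394-7272513 for Mmp13, with matches in capitals.
Mmp3: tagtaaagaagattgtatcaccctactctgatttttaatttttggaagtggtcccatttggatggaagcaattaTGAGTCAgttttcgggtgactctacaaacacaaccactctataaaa
Mmp10: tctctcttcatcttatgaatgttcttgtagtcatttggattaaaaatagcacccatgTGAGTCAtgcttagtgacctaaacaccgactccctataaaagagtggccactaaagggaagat
Mmp13: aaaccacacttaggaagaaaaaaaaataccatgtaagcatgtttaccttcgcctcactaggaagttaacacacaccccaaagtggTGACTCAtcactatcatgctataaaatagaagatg
The match began 46 bases before the start in Mmp3, 63 in Mmp10 and 35 in Mmp13. None of the 6 other tested Mmp genes with a window held the letters. The 7 called Mmp genes with the letters lie together on chromosome 9, between 7272514 and 7699585, so they are not independent cases. Of the 155 genes called higher that had a window 26 held the letters (16.8%), these 7 among them. The share was 6 of 61 called lower (9.84%), 680 of 10034 tested genes (6.78%) and 2565 of all 32851 windows (7.81%). The motif was searched on both strands and was chosen after the called genes were seen. Of 18 immediate early genes, which include the Fos and Jun subunits of AP-1, 3 were called, all higher (1.61% of all genes). Fosl1, a Fos family subunit, was at 28.9, 41.3, 45.3 and 50.9 against 14.8, 15.2, 19.4 and 22.5 (log2 fold change 1.16, SE 0.15, adjusted p = 0.0119), and Ier3 was at 553, 564, 574 and 608 against 138, 205, 307 and 218 (log2 fold change 1.46, SE 0.18, adjusted p = 0.0103). Both held against both WT cultures. Dusp1, a phosphatase that turns off MAP kinases, was called too (1.01).

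Genes of TGF-beta signalling and of the basement membrane were called in 1 direction. Of 21 TGF-beta genes 4 rose and 20 had a fold change above 0 (1.61% and 44.6% of all genes), with a median of 0.75, made of 0.95 against WT M1 and 0.51 against WT M2. Ltbp2, a matrix protein related to the TGF-beta binding proteins, was at 26.1, 33.8, 65.7 and 76.7 against 8.1, 6.66, 16.5 and 12.4 (log2 fold change 2.06, SE 0.17, adjusted p = 0.00295), and held against both WT cultures. Tgfb1, the ligand, was at 54.5, 55.4, 53.8 and 60.4 against 29.8, 33.6, 34.4 and 30.4 (log2 fold change 0.79, SE 0.12, adjusted p = 0.0182). Its fold change was 0.79 against WT M1 and 0.79 against WT M2, and the adjusted p against WT M2 was 0.0573. The receptor genes Tgfbr1 and Tgfbr3 were called at 0.78 and 1.55. Of 22 basement membrane and adhesion genes 4 rose and 19 had a fold change above 0, beside the same shares of all genes. Their median was 1.02 against WT M1, where 14 were called higher (5.16% of all genes), and 0.19 against WT M2, where limma called none (8 at an unadjusted p under 0.05). Tnc, tenascin C, was at 534, 714, 795 and 927 against 105, 227, 400.1 and 338 (log2 fold change 1.60, SE 0.26, adjusted p = 0.026). Nid1, a linker of laminin and collagen IV, was at 93.4, 92.1, 141 and 224 against 40, 46.3, 48 and 54.4 (log2 fold change 1.44, SE 0.20, adjusted p = 0.0149). Itgb1 and Hspg2 were called at 0.85 and 1.46, and none of the 4 held against WT M2. Of 12 BMP genes 1 rose, beside 1.61% of all genes. This was Grem1, a BMP antagonist of crypt stroma, at 537, 677, 1099 and 979 against 87.2, 215, 236 and 322 (log2 fold change 2.02, SE 0.26, adjusted p = 0.0119), and it held against both.

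Of the 20 fibroblast markers 3 rose, Dcn, Vim and Twist1, and 19 had a fold change above 0, beside 1.61% and 44.6% of all genes. The median was 0.82, with 1.5 against WT M1 and 0.03 against WT M2. Against WT M1 13 were called higher, beside 5.16% of all genes, and against WT M2 1, beside 0.627%. Dcn, the proteoglycan decorin, was at 1493, 1573, 2551 and 2164 in Tnfr2-/- and at 135, 297, 402 and 399.9 in WT libraries (log2 fold change 2.74, SE 0.23, adjusted p = 0.00295) and held against both WT cultures. Vim, an intermediate filament of mesenchyme, was at 484, 766, 1462 and 1528 against 151, 367, 278 and 496 (log2 fold change 1.69, SE 0.32, adjusted p = 0.039), and Twist1, a mesenchymal transcription factor, at 14, 15.4, 22 and 26.9 against 1.79, 6.39, 4.17 and 10.6 (log2 fold change 1.75, SE 0.35, adjusted p = 0.0466). The highest WT library for Vim, M2 at 7 DPP, lay just above the lowest knockout library, and neither gene held against WT M2. Acta1, the actin of skeletal muscle, was at 133, 121, 179.5 and 159 against 13.3, 70, 33.6 and 41.8 (log2 fold change 2.07, SE 0.42, adjusted p = 0.0466), with a larger difference from WT M1 (2.73 against WT M1 and 1.42 against WT M2). The sum of the 20 markers was 5508, 7652, 11879 and 13041 in Tnfr2-/- libraries, 1987 and 2970 in WT M1 and 5977 and 7420 in WT M2. The knockout sums thus overlapped WT M2 and lay above WT M1. With the log2 of this sum as a covariate, an alternative added after the data were seen, 74 genes were called and 39 of the 299 were among them. None of the 299 changed sign. The cytokine and matrix genes still called there included Il6 (5.54, adjusted p = 0.0221), Ltbp2 (2.19, 0.0202), Mmp7 (2.36, 0.0219) and Mmp9 (1.82, 0.0318), while Mmp3 (2.07, 0.096), Ccl2 (1.24, 0.255), Tnc (1.29, 0.203) and Tgfb1 (0.77, 0.112) were no longer called. Of these, the fold changes of Mmp3 and Tgfb1 stayed close to those without the covariate. Among the epithelial genes that fell, Cyp2c55 (-2.80, 0.133), Reg4 (-2.05, 0.19), Lyz1 (-2.57, 0.0587) and Ccl28 (-1.20, 0.244) lost their call as well, while Car1 (-3.28, 0.0162) kept it. Muc2, not called in either fit, went from -2.54 to -0.62 (adjusted p = 0.719). Which cells in the gel the transcripts came from was not tested.

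Immune, endothelial, glial and smooth muscle markers had low sums, while squamous markers did not. Of 16 immune markers 3 passed the filter and none was called by limma (1 at an unadjusted p under 0.05), with sums of 26.9 to 51.3 in Tnfr2-/- and 11.6 to 21.8 in WT libraries. Tyrobp was at 0 in all 8 libraries and Ptprc reached at most 0.144. The immune sum was nevertheless higher in every knockout library, and the part of this in the cytokine results was not tested. Its largest member, Cd68, was at 29.8, 19, 42.5 and 37.4 against 10.3, 15.8, 14.7 and 7.12 (log2 fold change 1.35, SE 0.31, adjusted p = 0.0627), and the gene is expressed outside macrophages too. Of the endothelial markers 1 of 6 passed the filter, of the glial 1 of 7 and of the smooth muscle 4 of 6, and none was called by limma (1, 1 and 0 at an unadjusted p under 0.05). The 15 squamous markers summed to 770 to 1698 in Tnfr2-/- and 452 to 2299 in WT libraries, which overlapped. Of these markers 8 passed the filter, all with a fold change above 0 (median 0.84), beside 44.6% of all genes. Against WT M1 4 were called higher (5.16% of all genes) and against WT M2 1 (0.627%). Only Krt13, a keratin of stratified epithelium, was called in the late effect, beside 1.61% of all genes called higher. It was at 37.7, 21.9, 11 and 23.9 against 4.08, 2.09, 5.71 and 0.631 (log2 fold change 2.65, SE 0.47, adjusted p = 0.0332). The defining squamous genes Trp63 and Krt5 were at 0 and at most 0.28. Genes of the Y chromosome reached at most 1.26 in any of the 8 libraries.

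**Figure D4:**
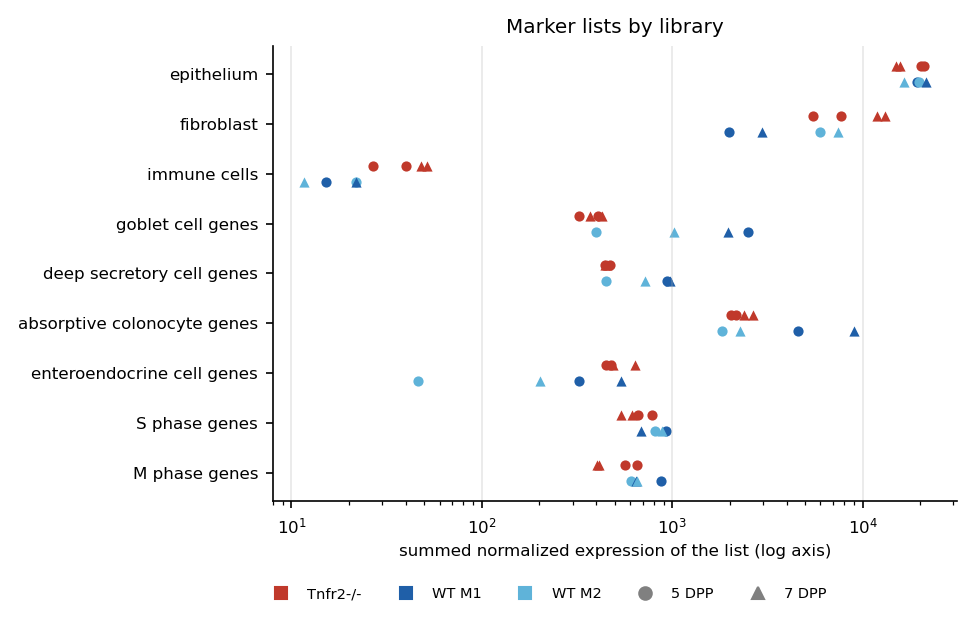
Summed normalized expression of marker and phase lists in each library on a log axis; red is Tnfr2-/-, dark and light blue WT M1 and WT M2, circles 5 DPP and triangles 7 DPP. Epithelial sums overlap, fibroblast sums of WT M1 lie below all others, and the goblet sum of WT M2 at 5 DPP, 399, falls among the Tnfr2-/- values of 323 to 430.

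Markers of differentiated epithelial cells mostly had fold changes below 0, and their size depended on the WT culture. None of 14 goblet cell genes was called by limma, 10 had an unadjusted p under 0.05 and 1 had a fold change above 0. Their median was -1.36, made of -2.05 against WT M1 and -0.75 against WT M2. Against WT M1 alone 10 of the 14 were called lower, beside 4.9% of all genes, and against WT M2 none (5 at an unadjusted p under 0.05), beside 0.31%. Muc2, the gel-forming mucin, was at 13.8, 24.4, 14.8 and 17.6 in Tnfr2-/- and 396, 23.9, 179 and 70.5 in WT libraries (log2 fold change -2.54, SE 0.75, adjusted p = 0.12). WT M2 at 5 DPP lay within the knockout range. Spdef, a goblet transcription factor, was at 0.783, 1.5, 1.41 and 2.02 against 11.7, 2.5, 9.1 and 8.41 (log2 fold change -1.76, SE 0.40, adjusted p = 0.061).

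The absorptive and deep secretory lists had the same form. Of 19 absorptive colonocyte genes 2 fell, Car1 and Cyp2c55, beside 0.59% of all genes. The median was -0.98, with -1.74 against WT M1 and -0.29 against WT M2. Against WT M1 alone 11 were called lower, beside 4.9% of all genes, and against WT M2 alone 2, beside 0.31%. Car2, a carbonic anhydrase of the same cells, was at 180.3, 184, 102 and 128 against 451, 203, 291 and 174 (log2 fold change -0.85, SE 0.26, adjusted p = 0.131). The 8 deep secretory genes had a median of -1.23, with -2.20 against WT M1 and -0.25 against WT M2. Of the 9 colon identity genes tested none was called by limma (3 at an unadjusted p under 0.05), with a median of -1.32 against WT M1 and -0.05 against WT M2.

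Enteroendocrine genes split. Of 9 tested only Cck, the cholecystokinin hormone, was called, beside 1.61% of all genes called higher. It was at 423, 416, 358 and 529 in Tnfr2-/- and 47, 30.3, 154 and 53.3 in WT libraries (log2 fold change 2.85, SE 0.37, adjusted p = 0.012), held against both WT cultures and stayed called with the fibroblast covariate (3.70, adjusted p = 0.0178). The list's median was -1.20, in the other direction, made of -2.08 against WT M1 and -0.35 against WT M2. Against WT M1 5 genes were called lower, beside 4.9% of all genes. Against WT M2 limma called none lower, beside 0.31% (2 of the 9 at an unadjusted p under 0.05, in either direction). Chga, the secretory granule protein common to these cells, was at 0.609, 2.04, 2.04 and 2.36 against 21.6, 1.51, 23.7 and 12.3 (log2 fold change -2.14, SE 0.63, adjusted p = 0.121). WT M2 at 5 DPP lay within the knockout range, and the other 3 WT libraries lay above it. None of 5 tuft cell genes was called by limma (1 at an unadjusted p under 0.05).

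**Figure D5:**
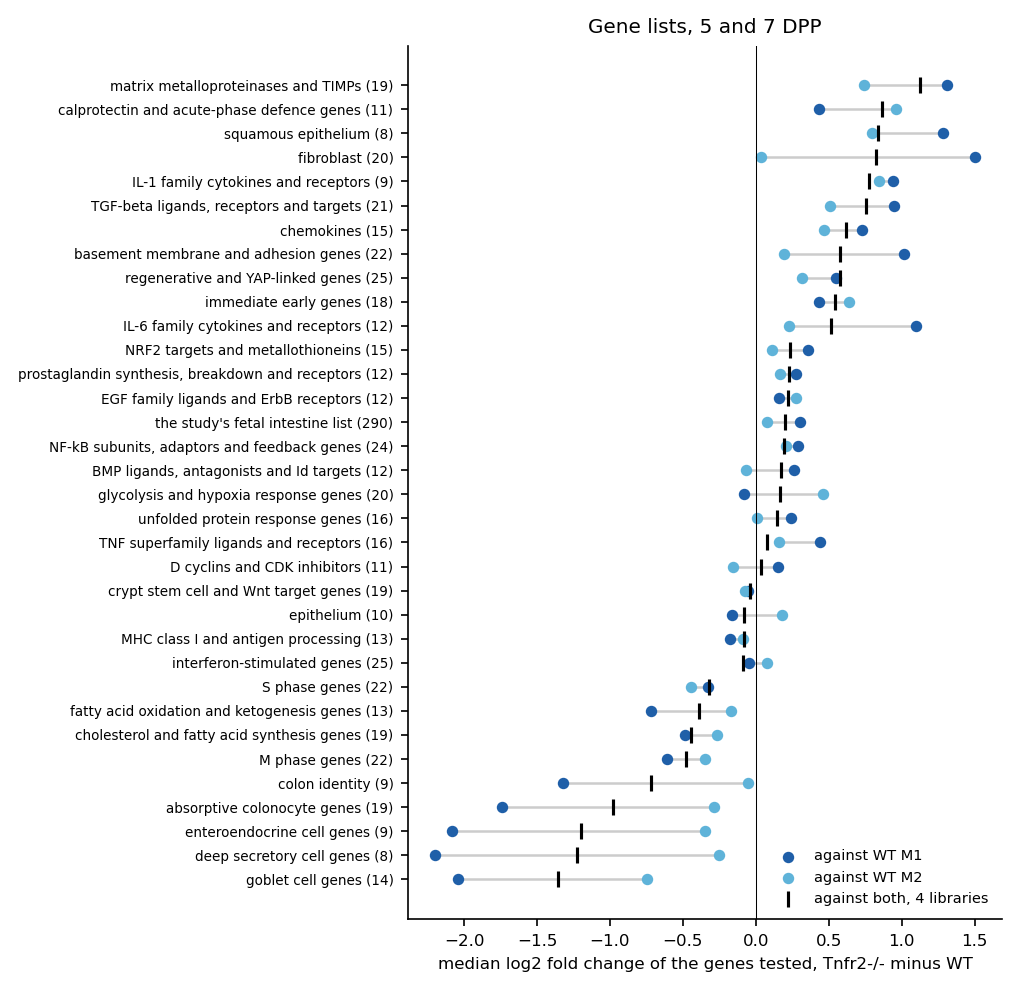
Median log2 fold change of each gene list, Tnfr2-/- minus WT, over the genes tested (their number in brackets); dark blue points are against WT M1, light blue against WT M2 and black ticks against all 4 WT libraries. The goblet, deep secretory, absorptive and fibroblast lists have points far apart, at -2.05 and -0.75 for goblet genes, while the IL-1 and immediate early lists have points close together.

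Most S and M phase genes had small fold changes below 0. Of 22 M phase genes none had a fold change above 0, beside 44.6% of all genes. The median was -0.48, with -0.61 and -0.35 against WT M1 and WT M2. Only Plk1, a mitotic kinase, was called, beside 0.59% of all genes called lower. It was at 16.4, 19.9, 11.5 and 16.3 against 41.2, 28.1, 29.6 and 27 (log2 fold change -0.94, SE 0.18, adjusted p = 0.0398). Mki67, the proliferation marker Ki-67, was at 34.6, 34.2, 21.9 and 19.1 against 54.9, 33, 38.1 and 36.1 (log2 fold change -0.57, SE 0.19, adjusted p = 0.164). None of 22 S phase genes was called by limma (10 at an unadjusted p under 0.05), and 3 had a fold change above 0 (44.6% of all genes). Of 11 D cyclins and CDK inhibitors 6 had a fold change above 0 and 1 fell, beside 44.6% and 0.59% of all genes. Their median was 0.03. Ccnd2, cyclin D2, was lower with overlapping groups, at 126, 96, 60.9 and 68.7 against 216, 165, 148 and 103 (log2 fold change -0.85, SE 0.16, adjusted p = 0.0413). Of 19 stem cell and Wnt target genes 1 rose, beside 1.61% of all genes. This was Msi1, an RNA-binding protein of progenitors, at 4.03, 4.52, 6.79 and 4.37 against 0.218, 0.208, 0.812 and 1.13 (log2 fold change 1.92, SE 0.27, adjusted p = 0.0158). Lgr5, the crypt stem cell receptor, overlapped between genotypes (log2 fold change -0.33, SE 0.29, adjusted p = 0.568), as did Myc (log2 fold change -0.24, SE 0.16, adjusted p = 0.443).

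Of 25 regenerative and YAP-linked genes 3 rose, Spp1 and Ereg among them, and 23 had a fold change above 0, with a median of 0.58. Of all genes 1.61% rose. Against WT M1 10 of the 25 were called higher, beside 5.16% of all genes, and against WT M2 none (limma, 8 at an unadjusted p under 0.05), so none held against both. Spp1, osteopontin, was at 1104, 673, 431 and 368 against 45.9, 117, 109 and 122 (log2 fold change 2.66, SE 0.41, adjusted p = 0.0227). Ly6a, the surface protein Sca-1, was at 4427, 4024, 3514 and 3492 against 1783, 3316, 2629 and 2032 (log2 fold change 0.70, SE 0.19, adjusted p = 0.106). Clu, clusterin, changed sign between the WT cultures (1.46 against WT M1 and -0.31 against WT M2) and was not called. Of 290 genes of the study's fetal intestine list 13 rose and 1 fell, or 4.48% and 0.345%, beside 1.61% and 0.59% of all genes, and the study read this list in these same samples, so its direction is not independent evidence. Of those 14 genes, 3 held against both WT cultures: Krt23, a keratin, at 113, 99.2, 156 and 139.8 against 20.1, 26.8, 56.7 and 25.5 (log2 fold change 2.04, SE 0.23, adjusted p = 0.00908), with Ier3 and Fosl1.

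Other pathways held few or no calls. None of 25 interferon-stimulated genes, 13 MHC class I genes, 16 unfolded protein response genes, 13 fatty acid oxidation genes and 19 cholesterol and fatty acid synthesis genes was called by limma, with 1, 1, 3, 6 and 13 at an unadjusted p under 0.05 in that order. All 19 lipid synthesis genes had a fold change below 0, with a median of -0.45, and 8 had no overlap between groups, beside 6.12% of all genes tested that were lower without overlap. Acly, which makes cytosolic acetyl-CoA, was at 128, 137, 109.9 and 121 against 206, 177, 149.7 and 153 (log2 fold change -0.46, SE 0.10, adjusted p = 0.0636). Of 15 NRF2 target and metallothionein genes 2 rose and 1 fell, beside 1.61% and 0.59% of all genes. Mt2, a metallothionein that binds zinc, was at 646, 686, 709.8 and 642 against 152, 228, 173 and 345 (log2 fold change 1.65, SE 0.23, adjusted p = 0.0149) and held against both WT cultures, and Mt1 and Gsta1 were called at 0.89 and -1.19. Of 20 glycolysis and hypoxia genes 2 rose, beside the same 1.61% of all genes. These were Vegfa, an angiogenic factor, at 295, 327, 281 and 339 against 149, 133, 242 and 193 (log2 fold change 0.82, SE 0.16, adjusted p = 0.0432), and Adm, adrenomedullin, with a fold change of 1.61. Of 11 calprotectin and acute-phase genes 1 rose, again beside 1.61% of all genes. S100a8, a calprotectin subunit, was at 78.6, 51.3, 95.9 and 66.1 against 0, 7.08, 12.4 and 9.59 (log2 fold change 3.63, SE 0.63, adjusted p = 0.0314), with an adjusted p of 0.105 against WT M2.

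Taken by day, 20 genes were called at 5 DPP (0.147%) and 8 at 7 DPP (0.059%), from 2 libraries against 2 in each. Of these, 16 and 6 were among the 299. At 5 DPP limma called no gene without Tnfr2-/- M1, Tnfr2-/- M2 or WT M1 of that day (1063 to 1168 at an unadjusted p under 0.05) and 196 without WT M2 of that day. At 7 DPP the count was 0 to 3 without any single library, with at least 869 genes at an unadjusted p under 0.05. At 5 DPP they included Il6 (5.49, adjusted p = 0.0452), Tnfrsf9 (4.90, 0.0452), Penk (4.38, 0.0452), Spp1 (3.54, 0.0452), Ereg (3.38, 0.0413), Cxcl2 (3.10, 0.0452) and Lif (1.83, 0.0378). At 7 DPP they included Arhgdib (3.77, 0.0393) and Ltbp2 (2.23, 0.049). Brinp3 was called at both days, at 3.97 and 3.69. The difference between the day effects was called for 2 genes (0.0147%), Gm11353 and Gm20721, neither among the 299, so no called gene was shown to differ in its effect between 5 and 7 DPP. Within a genotype 20 genes were called between the WT cultures (0.147%) and 2 between the Tnfr2-/- cultures (0.0147%), with 2178 and 510 at an unadjusted p under 0.05. The WT calls, higher in M1, included the enterocyte genes Cdhr5 (1.95, adjusted p = 0.0312), Muc13 (2.09, 0.0476), Muc3 (2.29, 0.0449) and Lypd8 (2.00, 0.0476). Those higher in M2 included Fn1, fibronectin (-2.50, 0.0312), and Krt6a (-2.67, 0.0312).

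Near the targeted locus, within 10 Mb of Tnfrsf1b (chr4:135213463-155246870, GRCm38), 10 of 187 genes passed the test (5.35%), while 289 of the 13378 genes outside this interval did (2.16%). Only Tnfrsf9 held against both WT cultures. The zinc finger genes Zfp990, at 17.9, 6.38, 4.91 and 3.18 against 0.265, 1.27, 0.217 and 0.176, and Zfp984, at 8.23, 5.3, 6.7 and 3.5 against 17.9, 20, 17.7 and 17.6, moved in opposite directions (2.43 and -1.52). They belong to a family of similar sequence and their values are uncertain. Dhrs3, an enzyme that reduces retinal, was at 19, 30.8, 36.5 and 41 against 1.24, 2.97, 12.8 and 9.42 (log2 fold change 2.40, SE 0.33, adjusted p = 0.0152). Tnfrsf9, Dhrs3 and Hspg2 lie in this interval, where the genotype and DNA linked to the allele cannot be told apart.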

How the data were processed

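Reads were handled by the authors with CASAVA, kallisto and sleuth against mm10. The deposited values are a size-factor-normalized signal (TPM) per transcript. The authors' p-values and q-values, natural log means and variance terms were not used. After 781 repeated lines were dropped, 113193 transcripts were summed by symbol into 35240 genes, and 199 transcripts without a symbol were left out. Genes with a mean of at least 1 over the 8 libraries were fitted on log2(value + 1) with limma 3.58.1 (R 4.3.3, variance trend), with genotype and day, and adjusted by the Benjamini-Hochberg method. Contrasts with each WT culture came from a fit of 3 groups, and contrasts by day from 4 group means. The fits were tried on simulated data with independent libraries, equal spread in both genotypes and no culture effect, unlike the libraries here. Coordinates are those of GENCODE M21 (GRCm38), which matched 35035 symbols. Promoters are from RefSeq. The members and lists were chosen with earlier results of these data known. Named genes were the 12 largest called differences per direction without overlap, the 10 largest per direction that held against both WT cultures (in both cases without pseudogenes and Gm or Rik symbols), up to 4 called members of each list (or the 2 of lowest p), the 12 the study followed and the 5 with the largest gap between the WT contrasts among calls that held against 1 WT culture. Others (Il11, Csf3, Fgf7, Hgf, further Mmp genes, Cxcl3, Ccl2, Chga, the zinc finger genes, Dhrs3, Rpl34-ps1 and those of the closing section) were chosen after their values were seen. Some genes that these rules select are not reported here.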

Additional observations from a re-analysis of the deposited data

Results flagged for a closer look

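In 14 of 286 groups of 4 libraries examined over the named genes, 1 library stood apart from the other 3 by Dixon's criterion. Chance flags about 1 in 20 groups. WT M1 at 7 DPP was high for Il6 (3.954, the others at 0), Nppc (2.827, the others at 0) and Tnfrsf1b (21.89). WT M1 at 5 DPP was low for Spp1 (45.91), Socs3 (13.44) and Fgf7 (4.899). WT M2 at 5 DPP was low for Arhgdib (0.5321) and high for Zfp984 (20) and Zfp990 (1.275). WT M2 at 7 DPP was the only WT library above 0 for Rpl34-ps1 (73.37). Among Tnfr2-/- libraries, M1 at 5 DPP was low for Scube1 (0.997) and Chga (0.609) and the only one above 0 for Znf41-ps (1.289), and M2 at 7 DPP was high for Tnfrsf1b (11.45).

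The genotype effect differed between 5 and 7 DPP for 2 genes by the test of the difference. For Gm11353, a processed pseudogene, the log2 difference was 6.94 (SE 0.554, limma adjusted p = 0.0249), and for Gm20721 it was 8.03 (SE 0.518, adjusted p = 0.0113). Both were lower in Tnfr2-/- at 5 DPP, where the knockout libraries were listed at 0, and higher at 7 DPP, where the WT libraries were at or near 0. Both genes may share reads with copies elsewhere.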

How the results depend on the processing

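Each culture gave 1 library per day, the read depth of single libraries is unknown, and a lone library left after a leave-out is assumed to vary like the others. The 299 late calls became 111 with no filter on low values, 908 in the fit of all 20 libraries, 1 on culture means, 74 with the fibroblast covariate (chosen after seeing the data), 999 without WT M2, 5 without Tnfr2-/- M1 and 0 without Tnfr2-/- M2 (limma, 1418 at an unadjusted p under 0.05), and 16 to 599 without single libraries. Without a filter, 887 genes were called against WT M1, 64 against WT M2 (57 with 4 cultures in the fit), 33 held, 0 differed between WT cultures, 1 between knockout cultures, 4 at 5 DPP and 0 in the difference between days. Without single libraries these were 259 to 989 against WT M1, 1 to 260 against WT M2, 1 to 130 held, 0 to 196 at 5 DPP, and 0 to 3 at 7 DPP and in the difference between days. A pseudocount of 5 gave 66 between WT cultures, 16 at 7 DPP and 1 between days. A mean of at least 5 gave 68, 0 and 0. Equal totals gave 31 between WT cultures and 10 at 5 DPP. No variance trend gave 5 between WT cultures, 10 between knockout cultures, 24 at 7 DPP and 10 between days, and a pseudocount of 0.1 gave 1 between knockout cultures. The cause was not tested.

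None of the 106 called genes named changed sign in any alternative run. Of them 8 to 104 stayed called without single libraries (8 without Tnfr2-/- M2 at 5 DPP). With no filter 51 stayed called, with the culture as a correlated block 85 and with the covariate 23. Il1rl1, Tnf, Reg4, Ccl2, Cxcl3, Vim, Twist1, Plk1 and Ccnd2, among others, lost their call in 7 of the 8 fits that left out 1 library. Of genes not called, Vil1 (0.00926), Cnn1 (-0.427), Tnfrsf1a (-0.299), Clu (-0.654) and Myc (0.0129) changed sign with the covariate. Without WT M1 and without WT M2 the values were -0.0758 and 1.74 for Cnn1, -0.189 and 0.4 for Tnfrsf1a and -0.307 and 1.45 for Clu. Tnfrsf1a was -0.0671 without Tnfr2-/- M2 and -0.26 to 0.268 without single libraries. The list medians without WT M1 and without WT M2 were 0.18 and -0.167 for epithelium, -0.0689 and 0.828 for smooth muscle, -0.33 and 0.239 for tuft cells, -0.154 and 0.15 for D cyclins, -0.0687 and 0.259 for BMP, 0.0751 and -0.0459 for interferon and 0.463 and -0.0813 for glycolysis genes. Same-numbered cultures of the 2 genotypes deviated together by a correlation of 0.0441 at 5 DPP and -0.0527 at 7 DPP. Libraries of the same culture at 5 and 7 DPP correlated at 0.00752 in Tnfr2-/- and 0.247 in WT. A value near 0 therefore cannot show that cultures are unlinked. With the number as a replicate block 330 late genes and 1 gene between days were called.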

Other observations

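The following genes were picked after the called genes were seen, so nothing is read from them as groups. All but Ifitm1 and H2-Q4 lie outside the lists. Crabp1, a cytosolic retinoic acid binding protein, was at 289, 473, 995 and 1300 in Tnfr2-/- and at 45.6, 108, 93.8 and 159 in WT libraries (log2 fold change 2.79, SE 0.33, adjusted p = 0.00908). Stra6, the receptor for retinol-carrying protein, was at 12.1, 7, 16.7 and 20.2 against 0.253, 0.402, 5.99 and 1.45 (log2 fold change 2.59, SE 0.37, adjusted p = 0.0162). Both held against both WT cultures and stayed called with the fibroblast covariate, at 1.88 (adjusted p = 0.0211) and 3.17 (0.0426). The activin-binding follistatin genes Fst (2.60) and Fstl3 (1.44) and their relative Fstl1 (1.40) were called higher and did not hold against WT M2.

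All 3 prolyl 4-hydroxylase alpha subunits, which hydroxylate collagen, rose. P4ha1 was at 102, 128, 178 and 195 against 39.8, 55.8, 69.7 and 68.5 (log2 fold change 1.34, SE 0.14, adjusted p = 0.0082) and held against both WT cultures, and P4ha2 and P4ha3 were called at 0.79 and 2.53. The mesenchymal transcription factors Twist2 (1.53), Prrx1 (1.47) and Tbx18 (1.89) were called as well, none holding against WT M2. The carboxylesterase genes Ces1f, at 25.8, 29.6, 31 and 24.5 against 65, 138, 85 and 112 (log2 fold change -1.76, SE 0.23, adjusted p = 0.012), and Ces2g, at 4.97, 6.83, 3.88 and 4.48 against 52.7, 16, 33.1 and 13.2 (log2 fold change -2.12, SE 0.39, adjusted p = 0.0364), fell and held against both. Cftr, the chloride channel of crypt epithelium, was at 7.43, 7.11, 6.48 and 5.35 against 31.2, 12.9, 16.8 and 14.6 (log2 fold change -1.31, SE 0.26, adjusted p = 0.0442) and did not hold against WT M2. With the fibroblast covariate, Ifitm1 (-2.67, adjusted p = 0.0162) and H2-Q4 (-0.95, 0.0469) were called although they were not in the fit without it.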
